A study of Capra hircus with 3 samples.

Results

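One-base additions at the 3′ end of abundant small RNAs were measured in skin of the Shanbei White cashmere goat (Capra hircus). A tag is a distinct clean-read sequence with its number of reads, and T in a tag stands for U in the RNA. The 100 tags of 21 to 23 nt with the most reads, summed over the anagen, catagen and telogen libraries, were taken as parents. For each parent the 4 tags with 1 more base at the 3′ end were looked up, which gave 400 added tags out of 4043974 distinct tags in the series. Of these 400 tags, 396 had a read in at least 1 library, and 46 were themselves among the 100 parents. The last parent had 25300 reads and the first tag left out had 25204. Each library came from pooled skin RNA of 10 adult goats in anagen, the growth stage of the hair follicle (HF), in catagen, the regression stage, or in telogen, the resting stage. There was 1 library per stage, so no value has a replicate and no test between stages was possible. Intervals are exact 95% intervals (Clopper-Pearson) unless another kind is named, they cover counting error only, and reads of amplified cDNA are not independent molecules.

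The 3 libraries held from 15997828 (anagen) to 27016012 (telogen) clean reads. The parents took 43.4% of the clean reads of anagen, 44.2% for catagen and 36.2% for telogen, and each parent had from 927 to 1904506 reads in a library. A count of 0 for an addition allows a share of up to 0.324% of the parent, taken as 3 reads, for the parent with the fewest reads. Because the members were chosen by their reads, the high counts of the parents are not a result.

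The 3′ end of a miRNA varies in 2 ways. The enzymes Drosha and Dicer cut the precursor at slightly different places, so that a longer form carries the next base of the gene. Nucleotidyl transferases also add bases that are not in the gene, most often uridine or adenosine, and TUT4 and TUT7 are known for uridine addition to the let-7 family. The seed, bases 2 to 8 from the 5′ end, directs target choice and is left as it is by either change.

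The parents held 40 distinct seeds. The let-7 family, which is known for restraint of proliferation and of stem cell programmes, gave 27 of the 100 parents, all with the seed GAGGTAG. For the miRNAs with the most reads, the most-read parent of each is shown first, with the seed in capitals.
let-7a: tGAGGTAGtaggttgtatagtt
let-7f: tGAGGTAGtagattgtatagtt
let-7b: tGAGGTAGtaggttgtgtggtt
let-7c: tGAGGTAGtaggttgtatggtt
let-7g: tGAGGTAGtagtttgtacagtt
miR-1: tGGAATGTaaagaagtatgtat

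The forms of let-7b are shown next, from the 21 nt parent onwards, because 7 of the 100 parents belong to this series of ends. Capitals mark the bases added to the 21 nt form.
let-7b, 21 nt: tgaggtagtaggttgtgtggt
let-7b plus T: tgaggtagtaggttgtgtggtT
let-7b plus TT: tgaggtagtaggttgtgtggtTT
let-7b plus TA: tgaggtagtaggttgtgtggtTA
let-7b plus A: tgaggtagtaggttgtgtggtA
let-7b plus AT: tgaggtagtaggttgtgtggtAT
let-7b plus AA: tgaggtagtaggttgtgtggtAA

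The tags below carry the additions that were frequent although another base follows in the listed sequences of the miRNA. The added base is in capitals.
let-7i plus T: tgaggtagtagtttgtgctgttT
let-7e plus T: tgaggtaggaggttgtatagttT
miR-152 plus T: tcagtgcatgacagaacttggT
miR-320a plus T: aaaagctgggttgagagggcgaT
miR-26a plus T: ttcaagtaatccaggataggctT
miR-125b plus A: tccctgagaccctaacttgtgaA
miR-101 plus A: tacagtactgtgataactgaaA
miR-1839 plus A: aaggtagatagaacaggtcttgA

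A and T were the frequent added bases, and C and G were rare, in every library. The median over the 100 parents was 4.42%, 4.64% and 4.65% of the parent for A in anagen, catagen and telogen, and 6.45%, 6.31% and 7.22% for T. The medians for C were 0.134%, 0.0659% and 0.0692%, and those for G were 0.124%, 0.133% and 0.163%. The interval of the median from order statistics ran from 2.60% to 7.42% for A in anagen and from 0.0794% to 0.221% for C, and parents that share a start make it too narrow. Over the 200 most-read tags the medians for T fell to 3.43%, 3.56% and 3.69%. Over the 70 parents with a listed miRNA name, A was above T in each library, at 7.0%, 7.21% and 7.94% against 6.65%, 6.89% and 6.68%. The spread between parents was far wider than that between stages, since T ranged from 0.00839% to 1788% of the parent in anagen.

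With reads summed over the libraries, T was the leading added base of 54 parents, A of 28, C of 13 and G of 5. The Wilson interval for T was 44.3% to 63.4%, and that for G was 2.15% to 11.2%. The leading base was the same in all 3 libraries for 95 of 100 parents. The other 5 were a pair of unnamed tags with almost no addition, miR-152 of 22 nt, let-7a ending in an added G, and miR-205 of 23 nt, in each of which A and T changed places.

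The leading added base was also counted by the last base of the parent. Over all 100 parents T led 54% and A 28%. T led 64.7% of parents ending in T (Wilson interval 51.0% to 76.4%) and 61.5% of those ending in G (35.5% to 82.3%). It led 37.9% of those ending in A (22.7% to 56.0%), so each interval holds 54%. A led 48.3% of parents ending in A (31.4% to 65.6%), above its share over all parents. The base that the gene gives after the parent was not separated from the last base here. Of the 51 parents ending in T, 33 were led by a further T, and the median for T was 9.36%, 9.03% and 9.54% in anagen, catagen and telogen against 3.42%, 3.83% and 3.89% for A. Of the 29 parents ending in A, 14 were led by A and 11 by T, with medians of 4.48%, 4.79% and 4.87% for A and 1.92%, 1.79% and 2.08% for T. Parents ending in G were fewer, 13, and 8 of them were led by T, with medians of 23.1%, 24.6% and 21.1%. Parents ending in C numbered only 7, of which 4 were led by A. The parents of 1 group often share a sequence, such as let-7 among those ending in T, so the groups are not independent of the miRNAs in them.

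Shorter parents had higher percents. The median for T over the 23 parents of 21 nt was 22.6%, 25.2% and 26.5% in the 3 stages. It was 8.16%, 7.13% and 8.95% over the 47 parents of 22 nt and 3.38%, 3.41% and 3.32% over the 30 parents of 23 nt. For A the order was the same, with 10.7%, 11.4% and 11.7% at 21 nt and 1.93%, 1.99% and 1.95% at 23 nt. The highest values belonged to 21 nt parents that are a short form of an abundant miRNA. The 21 nt form of miR-1, a muscle miRNA, had T at 1788%, 6129% and 3102% of its reads, which is the 22 nt form itself. The 21 nt form of let-7f, a let-7 family member, had T at 1494%, 1254% and 1466%, and that of let-7g had T at 1459%, 1527% and 1649%. For A the highest was the 21 nt form of miR-29a, at 684%, 527% and 639%, followed by miR-103 of 22 nt and miR-23a of 21 nt, the latter at 268%, 279% and 339%. For G the highest was the 21 nt form of miR-205, a miRNA of stratified epithelium, at 99.5%, 132% and 136%. For C a 21 nt form of miR-2284x, at 101.1%, 105% and 115%, stood next to miR-140, whose values are given with the stages.

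An added base can be read from the gene, so each parent was set against the tags the authors assigned to known miRNAs. For 47 parents these tags gave 1 base after the parent, for 3 parents they gave several, and for 50 none. The base they gave is called encoded here, and the other 3 bases are called not encoded, which holds only for the gene copies in that list. A parent entered the 47 only where a longer tag was listed, and the listed tags come from this same study. The presence of the encoded base was therefore part of how these parents were chosen. With that limit, the encoded base was the leading addition of 30 of the 47 parents. In the other 17 a base that was not encoded led, T in 11 and A in 6, and neither C nor G led in this way. The encoded base had a median of 16.1%, 14.8% and 16.5% of the parent in anagen, catagen and telogen, and the 3 bases not encoded summed to a median of 10.3%, 12.3% and 10.8%.

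Among bases that were not encoded, A and T again stood far above C and G. A had a median of 7.68%, 8.66% and 8.78% over 34 parents, and T of 4.01%, 4.04% and 3.88% over 31. C had 0.200%, 0.0945% and 0.0992% over 40 parents, and G had 0.145%, 0.200% and 0.195% over 36. A was above 10% in each library for 14 of its 34 parents and T for 11 of its 31, while C was so for 1 of 40 and G for 0 of 36. In the 18 parents whose encoded base was C or G, neither A nor T was encoded. There T made up 66.6%, 64.3% and 64.3% of the reads that were not encoded, A made up 32.3%, 34.6% and 34.7%, and C and G together the small rest. The let-7b parent ending in TT carried much of this. Without it T made up 49.2%, 52.1% and 48.0% and A 49.1%, 46.5% and 50.7%, so that neither base led in all libraries. A exceeded T in 9 of these 18 parents and T exceeded A in 9.

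The parents with frequent T that was not encoded were of several families. The parent of let-7i, whose encoded base is G, had T at 75.9% (73.9% to 78.0%) in anagen, 52.0% (50.9% to 53.2%) in catagen and 59.8% (58.5% to 61.1%) in telogen. Its encoded G was at 0.862%, 1.64% and 1.37%, below T in every library. The 21 nt parent of miR-152, a member of the miR-148 family, had T at 90.9%, 59.7% and 91.9%, and its encoded G at 2.66%, 1.74% and 2.62%. For T, catagen was the lowest library in both of these miRNAs. The parent of miR-320a, which is made without Drosha, had T at 45.0%, 38.2% and 45.4%, close to its encoded A at 40.0%, 34.9% and 41.9%. The parent of miR-26a, a miRNA known for uridine addition, had T at 9.36%, 17.4% and 11.3%, and its encoded G at 0.337%, 0.526% and 0.451%. Here catagen was the highest library, 1.86 times anagen (interval 1.78 to 1.94). The parent of let-7e had T at 23.9%, 22.2% and 23.2% and A at 14.7%, 14.4% and 15.6%, both above its encoded G at 5.45%, 6.08% and 6.13%.

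Other parents had A as their frequent base that was not encoded. The parent of miR-125b had A at 21.1% (19.6% to 22.8%), 12.8% (12.2% to 13.4%) and 11.9% (11.4% to 12.3%) in anagen, catagen and telogen, against 9, 26 and 37 reads of its encoded G. The anagen interval did not overlap the others. The 21 nt parent of miR-101 had A at 19.4%, 29.2% and 24.3% and its encoded G at 6.86%, 9.39% and 7.13%. The parent of miR-1839 had A at 20.8%, 19.9% and 19.8%, with overlapping intervals. The 22 nt parent of miR-199a that ends in the encoded A, a form of a fibroblast-rich miRNA, had a second A at 21.9%, 18.5% and 19.5%, and its encoded G at only 0.0738%, 0.0622% and 0.0882%.

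C and G that were not encoded reached several percent in few parents. Beside miR-1, described with the muscle miRNAs, the 21 nt parent of miR-101 had C at 2.84%, 4.22% and 2.85%. The 23 nt parent of miR-21 had G at 6.27%, 4.39% and 6.25% and C at 1.92%, 0.780% and 1.20%. The 23 nt parent of miR-320a that ends in the encoded A had G at 1.74%, 2.44% and 2.28%. The 21 nt parent of let-7b had A that was not encoded at 34.6%, 34.4% and 30.7%, lowest in telogen.

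Not every parent had such additions. The parent of miR-10a, a Hox cluster miRNA, had its encoded G at 17.9%, 20.5% and 21.2% and T at 0.163%, 0.233% and 0.284%. The 21 nt parent of miR-21, an abundant miRNA of injured and growing tissue, had its encoded A at 50.8%, 64.4% and 58.9% and T at 0.238%, 0.221% and 0.240%. In both parents the encoded base led in every library.

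The let-7 family members carried both bases, in different amounts. The 22 nt parent of let-7a had the encoded T at 8.65%, 9.03% and 9.54% and A, which was not encoded, at 7.45%, 7.52% and 8.30% in anagen, catagen and telogen. Telogen was the highest library for both, A being 1.11 times anagen (interval 1.11 to 1.12). The parent of let-7f had A at 5.87%, 5.97% and 6.26%. The parent of let-7b had far more of both, with the encoded T at 91.1%, 67.7% and 84.4% and A at 33.7%, 23.8% and 29.2%. Catagen was the lowest library for let-7b, with A at 0.706 times anagen (interval 0.700 to 0.711). Over the 27 let-7 parents the median was 7.23%, 6.91% and 8.19% for A and 8.65%, 9.03% and 9.54% for T, and T led in 20 parents and A in 7. Over all 100 parents those medians were lower, as given above. Over the 70 parents with a listed miRNA name, A was at 7.0%, 7.21% and 7.94%, close to let-7 and above it in catagen. T was lower there than in let-7, at 6.65%, 6.89% and 6.68%. Most of the let-7 parents are among these 70, so the sets overlap. For the 32 parents of miRNAs known for 3′ addition, let-7 with miR-21, miR-26a and miR-26b, the medians were 7.23%, 7.21% and 8.10% for A and 9.0%, 8.08% and 9.91% for T.

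Of these members let-7b had the largest shares of longer forms. The shares below are of the reads of the 21 nt form and its 20 additions of 1 or 2 bases. For let-7b the form with T took 39.3%, 46.3% and 41.0%, the form with TT 35.8%, 31.3% and 34.6%, and the form with TA 13.3%, 11.0% and 12% in anagen, catagen and telogen. For let-7a the form with T took 80.1%, 78.9% and 78.4%, and that with TT only 6.93%, 7.12% and 7.48%. For let-7c the form with T took 71.7%, 73.4% and 71.6%. For let-7f it took 85%, 83.8% and 84.2%, and for let-7g 87.1%, 87.0% and 87.4%. The order of the members by this share, let-7g, let-7f, let-7a, let-7c and let-7b from high to low, was the same in the 3 libraries, and neighbours in it differed by more than their counting intervals.

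Tags longer by 1 base were also found for the forms of let-7 with 1 or 2 added bases. Whether they arose by stepwise addition was not tested. The let-7b parent with a single A in place of the encoded T had further A at 121.8%, 99.5% and 127% of its reads and further T at 152%, 133.5% and 179%. The let-7b parent ending in TT, where the encoded base is C, had further T at 15.2%, 15.6% and 15.5%. The let-7b parent ending in TA had A at 12.2%, 12.2% and 12.8% and T at 19.8%, 21.4% and 22.9%. The let-7a parent ending in TA was lower, with A at 3.68%, 3.70% and 4.03% and T at 1.07%, 1.14% and 1.16%.

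The lists of cell type miRNAs gave few parents. Muscle miRNAs gave 5 parents, of miR-1 and miR-206, and they summed to 0.371%, 7.28% and 1.92% of the clean reads in anagen, catagen and telogen. The 22 nt parent of miR-1 had 52510, 1197524 and 459274 reads, and T, the encoded base, at 1.77%, 3.03% and 3.35%, while A was at 0.676%, 0.813% and 0.958%. Both were lowest in anagen, where the parent itself was lowest. The parent of miR-206 had T at 11.3% (9.48% to 13.3%), 19.1% (18.6% to 19.5%) and 18.8% (18.1% to 19.5%), and A at 5.12%, 10.7% and 9.81%, also lowest in anagen, with 1386 parent reads there. The part of the amount of muscle RNA in these values was not tested. The 21 nt parent of miR-1 was the single parent with more than 10% of C that was not encoded, at 56.6%, 98.8% and 80.2%, beside A at 57.1%, 80.5% and 50.1%. Among the miR-1 forms of 21 to 23 nt with this start, the end with C took 2.76%, 1.48% and 2.30%.

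Red blood cells gave 1 parent, miR-451, which is made by Ago2 in place of Dicer, at 0.0478%, 0.0785% and 0.0243% of the clean reads. It had its encoded A at 12.1%, 10.2% and 15.4% and T at 0.444%, 0.514% and 0.488%. Epithelium gave 6 parents, of the skin miRNAs miR-203 and miR-205, at 0.374%, 0.501% and 0.469% of the clean reads. The 22 nt parent of miR-205 had its encoded T at 56.4%, 94.1% and 68.2% and A at 4.96%, 11.8% and 6.57%, highest in catagen for both. The most-read parent of miR-203, for which no following base was listed, had A at 3.14%, 3.67% and 4.02% and T at 5.06%, 5.72% and 6.70%. The 10 parents of dermal and smooth muscle miRNAs, miR-199a, miR-143 and miR-145, had medians of 15%, 9.67% and 10.6% for T. The liver miRNA miR-122 gave 0 parents.

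Tags without a miRNA name here showed other ends, and a miRNA missing from the names used could be among them. The shortened copy of the annotation used here named 70 parents as miRNAs, a further 16 were recognised as miRNAs from general knowledge, and 14 were neither. Of these 14, 5 end in CCA, the end that mature tRNAs carry, and no gene was assigned to them. They are shown because they had almost no addition.
CCA tag 1: tcgtttcccggccaatgcacca
CCA tag 2: cgtttcccggccaatgcacca
CCA tag 3: ttcgtttcccggccaatgcacca
CCA tag 4: tcgtttccggctcgaaggacca
CCA tag 5: tcgtttcccgggcggcgcacca

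All 4 additions together came to 50 reads on 66295 parent reads in anagen, 0.0754% (0.0560% to 0.0994%). They came to 93 reads, 0.0728% (0.0588% to 0.0892%) in catagen and 0.0853% (0.0732% to 0.0989%) in telogen, so the 3 intervals overlapped. The highest single value in them was A at 0.119% in anagen. Tags 1, 2 and 3 differ only in where they start, so they are not separate examples. The parents of miR-23a and miR-23b also end in CCA and did not share this. The 22 nt parent of miR-23a had its encoded A at 18%, 21.9% and 21.2% and T at 15.5%, 14.5% and 14.9%, and that of miR-23b had C at 44.5%, 48.6% and 47.6% and T at 21.9%, 21.4% and 19.8%.

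In the other 9 parents without a miRNA name, 1 base stood out and the rest were rare. C led in 5 of them, T in 3 and G in 1, and A was below 1% in all 9. No following base was listed for any of the 9, so a base of the gene was not told apart from an added base. A 22 nt tag recognised as 28S ribosomal RNA had C at 11.4% (10.7% to 12.3%), 49.9% (47.5% to 52.5%) and 34.3% (33.2% to 35.5%) in anagen, catagen and telogen, and T at 0.181%, 0.301% and 0.153%. Anagen was the lowest library for C in this tag.

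Changes of 1 base at positions 10 to 15 of the parent, with its length kept, were counted as a measure of reading differences and of related genes. Over 1800 such changes the median was 0.0187%, 0.0106% and 0.0141% of the parent in anagen, catagen and telogen. Taken against the median change of the same parent over the summed libraries, A that was not encoded was more than 10 times as frequent in 34 of 34 parents and T in 31 of 31. C was so in 19 of 40 and G in 20 of 36. In the 5 CCA tags, 0 of 20 additions were more than 10 times as frequent. A misread last base of a longer tag scales with that tag. Where the encoded addition exceeds the parent, the inner change is therefore too low a measure and cannot decide. For 16 parents the encoded base is T. There added A per 100 reads of added T had a median of 31.1, 23.7 and 24.7 in the 3 libraries. Added C had 0.534, 0.352 and 0.383. In anagen A ranged from 0.530 to 300. The part of reading differences in added A and T was not tested.

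The study sampled the 3 stages to compare sRNAs along the HF cycle, and by the rule used here few additions of A and T differed between them. A ratio between 2 libraries was called when it was over 2-fold, with at least 50 added reads in either library and 1000 parent reads in both. The background is the same rule in tags of 21 to 23 nt outside the 100. For A, 3 of 89 parents were called between catagen and anagen (background 7.41%), 0 of 90 between telogen and anagen (4.24%) and 1 of 91 between telogen and catagen (3.95%). For T, the counts were 3 of 84 (background 9.63%), 1 of 86 (1.37%) and 1 of 88 (5.47%). For G, they were 1 of 44 (15.8%), 1 of 49 (5%) and 4 of 49 (5.15%). The median ratio of telogen to anagen was 1.06 for A, with a range of 0.562 to 1.92, and 1.04 for T. For G it was 1.23, with 40 of 49 parents above 1, beside 1.22 in the background tags. At this depth the counting interval left out 1 for 59 of the 90 parents for A and for 51 of 86 for T, but with no replicate the spread between libraries of 1 stage is unknown.

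The calls for A and T fell on a few parents. The 21 nt parent of miR-140, a cartilage miRNA, was called for all 4 bases between catagen and anagen. It had A at 44.6%, 123% and 59.4%, the encoded C at 76.5%, 224% and 107%, and T at 26.1%, 85.8% and 40.0% in anagen, catagen and telogen. All of them share 1 parent count, 14628, 6493 and 16722 reads. Per 100 reads of the encoded C, A stood at 58.3, 55 and 55.6, so the bases kept nearly the same ratio to each other. The other calls between catagen and anagen were A on miR-206 and on miR-205 of 22 nt, and T on miR-1 of 21 nt and on miR-222, which had T at 3.89%, 8.56% and 4.69%. All 3 calls for A (background 5.19%) and all 3 for T (5.93%) were higher in catagen.

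In both pairs with anagen, added C was called more often than the other bases, among the 100 parents and in the background alike. Between catagen and anagen 15 of 44 parents, 34.1%, were called (background 26.3%). Of these, 12 were lower in catagen, 27.3% of 44 (background 10.5%), and 3 were higher, 6.82% (15.8%). Between telogen and anagen 8 of 48 were called (background 13%), 6 of them lower in telogen, 12.5% of 48 (background 5.56%), and 2 higher (7.41%). Between telogen and catagen 3 of 43 were called (background 7.35%). All 6 that were lower in telogen were among the 12 lower in catagen, and both comparisons share the anagen library. The 12 parents hold 9 distinct starts, and 6 of them are of the let-7 family. With 1 parent kept for each first 18 nt, 52 of the 100 parents remained. The calls were then 6 in place of 15 between catagen and anagen, and 1 in place of 8 between telogen and anagen. Fewer parents allow fewer calls, and no background share is given for this smaller set.

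The largest folds were those of low counts. They are shown with the added C in capitals.
miR-103 plus C: agcagcattgtacagggctatgC
miR-23a plus C: atcacattgccagggatttccC
miR-29a plus C: tagcaccatctgaaatcggttC

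C after the 22 nt parent of miR-103 had 160, 9 and 7 reads in anagen, catagen and telogen, or 1.93% (1.64% to 2.25%), 0.0864% (0.0395% to 0.164%) and 0.0538% (0.0216% to 0.111%). After the 21 nt parent of miR-23a it had 59, 6 and 8 reads, or 1.25%, 0.0455% and 0.0620%. C after the 21 nt parent of miR-29a was at 1.21%, 0.223% and 0.337%. In all 3 parents A was by far the leading addition, at 258%, 344% and 304% for miR-103. The let-7 parents were called at far lower levels, for example C on let-7a at 0.0768%, 0.0366% and 0.0423%. A call in the other direction was C on miR-26a, at 0.117%, 0.310% and 0.0644%, which was highest in catagen. The other large folds between telogen and catagen were C on miR-10b, at 0.626%, 0.290% and 0.837%, and G on the 22 nt parent of miR-1, at 0.00952%, 0.00543% and 0.0139%.

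The median over all changes within the parent, given above, was also highest in anagen, but not each kind of change was. The median change from C to A was 0.00888%, 0.00869% and 0.0158%, highest in telogen, and that from G to T was 0.0276%, 0.0284% and 0.0275%. The median inner change from A to C was 0.0134%, 0.00490% and 0.00563% in anagen, catagen and telogen, and the inner changes of a parent, summed, were lower in catagen than in anagen for 87 of 100 parents and lower in telogen than in anagen for 87 of 100. C was lower in catagen than in anagen for 29 of the 40 parents where it was not encoded. Over the 13 parents whose encoded base is A, the reads of added C per 100 reads of added A had a median of 0.961, 0.356 and 0.402. The share of reads without a 3′ adapter, as the authors recorded it, was 0.343%, 0.0290% and 0.163%. The part of reading differences in the anagen values of added C was not tested.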

How the data were processed

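Small RNA of 18 to 30 nt from pooled goat skin was sequenced on an Illumina Genome Analyzer in 1 library per stage. The authors removed low-quality reads, adapter contaminants, reads without insert and reads under 18 nt, and deposited the count of reads of each distinct clean tag, with no normalisation. The authors also deposited the length beside each tag, and a filtering record.

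The parents were the 100 tags of 21 to 23 nt with the most summed reads, and each addition is given as a percent of its parent in the same library, computed with Python 3.11.15, numpy 2.4.6 and scipy 1.17.1. Exact intervals treat added reads as a share of added plus parent reads. Names and encoded bases were taken from a shortened copy of the annotation of the authors, which held 2699 distinct tags, by the longest shared start of at least 18 nt. A hairpin reference, planned for the encoded base, was not used here. Names of 19 parents came from general knowledge. The parents named in the text were the 10 with the most reads, those with the highest percents for each base, the called pairs with the largest fold, the parents of the cell type lists and groups sharing a start. Others, such as miR-125b and miR-1839, were chosen after their values were seen. The members, lists and rules were chosen with earlier results of these data known. The scripts were tested on simulated counts.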

Additional observations from a re-analysis of the deposited data

How the results depend on the processing

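Of 195 values recomputed under another choice, 149 stayed within the interval of the reported median or share, or within 1.5 times the reported count, and 46 moved. The intervals of the medians are wide, so a value inside them could still shift by over 1.5 times, as T did with the 200 most-read tags and A with listed names only, given in the report. Without the let-7 family the median for G in telogen was 0.0922%, and with 22 nt parents A in anagen was 6.77%. Leaving out let-7, 22 nt parents for the bases not encoded, and leaving out the 23 nt let-7b parent were chosen after seeing the data, and the last of these moved the shares of A and T given in the report. Without parents that are another parent plus 1 base, the medians rose to 0.225%, 0.138% and 0.137% for C in anagen, catagen and telogen, to 0.250% for G in anagen, and to 17% and 15.6% for T in catagen and telogen, and A led 18.5% of parents. As a percent of parent plus additions, C fell to 0.0393% in catagen and 0.0484% in telogen, and G to 0.0736% in anagen and 0.0715% in catagen. Among the 50 most-read tags, T led 72%, A 20% and C 4%.

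Counts of parents called between stages depended on the fold. The counts in this paragraph come without a number tested or a background share, so they cannot be set against those of other tags. At 1.5-fold they were 14, 5 and 8 for A in the pairs catagen-anagen, telogen-anagen and telogen-catagen, 24, 20 and 8 for C, 8, 7 and 9 for G, and 12, 8 and 8 for T. At a minimum of 20 added reads, the counts that moved were 2 for A and 5 for C in telogen-catagen, and 4, 3 and 7 for G in the 3 pairs. With 1 parent for each first 18 nt, C had 6 in catagen-anagen and 1 in telogen-anagen, A had 0 in telogen-catagen, G had 0, 0 and 2, and T had 1, 0 and 0 in the 3 pairs. The encoded base from a genome or hairpin was not run, and a gene copy missing from the list could make a base encoded that is called not encoded here. No paired analysis was possible because each stage has 1 library and the labels give no replicate numbers.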
